A study of Mus musculus with 12 samples.

Results

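The epithelial junction and adhesion genes described here were 9 genes chosen by name, Epcam, Cdh1, Cldn1, Cldn3, Cldn4, Cldn7, Cldn8, Ocln and Tjp3, out of 23301 gene names present in all 12 mouse RNA-seq files. Their mRNA levels were given as FPKM, fragments counted relative to the length of the gene and the size of the library, in 4 groups of 3 replicates. The Normal group was mammary gland of FVB wild type mice without treatment, and each replicate pooled the abdominal and inguinal glands of 3 mice. The Tumor group was untreated mammary tumor of the thoracic gland of MMTV-PyVT mice, in which the mouse mammary tumor virus promoter drives the polyomavirus middle T oncogene in mammary epithelium, with 1 mouse for each replicate. The DMSO and C646 groups were mammary tumors of MMTV-PyVT mice injected with the solvent DMSO or with C646, an inhibitor of the histone acetyltransferase p300, at 1 mg/kg as the labels give it for both groups. All mice were 12 weeks old and the transgenic mice were heterozygous females of the FVB/N strain. Per the paper, the DMSO and C646 libraries were made from the biggest tumors of 3 mice in each group.

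Epithelial cells are held together by a series of contacts near their apical side. Claudins and occludin, membrane-spanning proteins of the tight junction, seal the space between neighboring cells, and zonula occludens proteins such as the Tjp3 product ZO-3 tie them to the actin cytoskeleton. Below the tight junction, E-cadherin (Cdh1) binds E-cadherin of the next cell in the adherens junction, and Epcam, a surface glycoprotein of most simple epithelia, is a known binding partner of claudin-7. In the mammary gland the luminal cells form these junctions, and the tight junctions close when milk secretion starts.

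Normal and Tumor libraries came in tables with 26220 rows and the DMSO and C646 libraries in tables with 24304 rows, so the tables were made separately and groups were tested only within each. The FPKM of a library summed to between 526854.9 and 783718.6, and the files did not give the number of mapped reads. Of the 8 luminal epithelial markers, 6 were higher in Tumor than in Normal, and their summed FPKM was between 376.5 and 781.2 in Normal and between 1939 and 2516 in Tumor. The 8 adipocyte markers all were lower in Tumor, with sums between 25592.7 and 32264.4 in Normal and between 120.3 and 2436 in Tumor. The 8 lymphocyte markers were all lower too, with sums between 485.2 and 664.8 in Normal and between 3.245 and 5.595 in Tumor, and Ms4a1 was at 0 in the 3 Tumor libraries. The 6 skeletal muscle markers rose from sums between 11.11 and 87.07 in Normal to between 1662 and 4567 in Tumor. Fibroblast, endothelial and macrophage markers were lower in Tumor in 4 of 5, 6 of 6 and 6 of 6 genes, and the summed basal and myoepithelial markers overlapped between the groups, although 4 of these 8 genes, Acta2, Myh11, Oxtr and Mylk, were lower in Tumor and 2, Krt14 and Trp63, were higher. The part of these cell type markers in the results below was not tested except where the luminal keratins were used as a reference. In bulk tissue a lower number of cells of a type and less RNA per cell cannot be told apart, and the genotype of the Tumor mice cannot be told apart from the gland position or the pooling.

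The 9 genes lie on 7 chromosomes of the mm10 (GRCm38) genome. Cldn3 (ENSMUSG00000070473.4) at chr5:134986214-134987472 and Cldn4 (ENSMUSG00000047501.3) at chr5:134945119-134946934 each consist of 1 exon, of 1259 and 1816 bp, lie on opposite strands and are separated by 39279 bp. Epcam (ENSMUSG00000045394.9) covers chr17:87635979-87651129 with 10 exons, and Cldn7 (ENSMUSG00000018569.12) covers chr11:69964779-69967885 with 4 coding exons. Cdh1 at chr8:106603351-106670246, Cldn1 at chr16:26356642-26371841, Cldn8 at chr16:88560828-88563183, Ocln at chr13:100496507-100552718 and Tjp3 at chr10:81273207-81291581 make up the rest. The claudins are small, with between 210 and 225 codons, against 315 for Epcam, 521 for Ocln, 884 for Cdh1 and 904 for Tjp3.

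The 250 bases before the transcription start are shown for 4 genes. Epcam, Cldn3 and Cldn7 lay higher in Tumor relative to the luminal keratins, and Cldn4 had a lower mean share among the 5 claudins. None of these differences passed its test after adjustment. Tjp3, which lay lower relative to the keratins, also had a window, which is not shown. The sequences are from RefSeq on GRCm38.p6, from chr17:87635729-87635978 (forward strand), chr5:134985964-134986213 (forward strand), chr11:69964529-69964778 (forward strand) and chr5:134946935-134947184 (reverse strand), written 5′ to 3′ in the direction of transcription. Capitals mark the E-box CAGGTG, the core bound by repressors of the Snail and Zeb families, or its complement CACCTG, and the GC box GGGCGG or its complement CCGCCC.
Epcam: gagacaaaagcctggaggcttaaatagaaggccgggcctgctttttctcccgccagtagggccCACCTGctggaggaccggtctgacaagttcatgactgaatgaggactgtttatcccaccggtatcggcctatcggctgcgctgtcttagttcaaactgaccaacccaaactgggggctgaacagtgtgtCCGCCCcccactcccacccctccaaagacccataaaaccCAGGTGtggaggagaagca
Cldn3: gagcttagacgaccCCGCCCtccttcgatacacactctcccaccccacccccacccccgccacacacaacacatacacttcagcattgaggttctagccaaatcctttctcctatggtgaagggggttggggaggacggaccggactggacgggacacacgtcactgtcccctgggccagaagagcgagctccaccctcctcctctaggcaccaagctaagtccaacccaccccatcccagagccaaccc
Cldn7: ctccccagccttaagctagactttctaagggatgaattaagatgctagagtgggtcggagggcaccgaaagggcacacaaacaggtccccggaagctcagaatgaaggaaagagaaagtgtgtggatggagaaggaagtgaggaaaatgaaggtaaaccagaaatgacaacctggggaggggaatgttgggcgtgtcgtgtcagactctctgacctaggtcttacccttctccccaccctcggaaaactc
Cldn4: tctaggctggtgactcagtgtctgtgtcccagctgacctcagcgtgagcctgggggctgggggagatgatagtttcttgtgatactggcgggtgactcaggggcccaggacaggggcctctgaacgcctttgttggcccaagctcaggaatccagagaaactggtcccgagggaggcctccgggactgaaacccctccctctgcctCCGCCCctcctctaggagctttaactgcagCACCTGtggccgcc

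The E-box CAGGTG, searched on both strands, was in 3 of the 7 genes with a RefSeq window, taking the most upstream start of each gene, and in 17.2% of 32851 promoter windows of the same length. Counted to the first base of the motif, the Epcam window held it 187 and 19 bases before the start, the Cldn4 window 14 bases before the start and the Tjp3 window 108 bases before the start. Windows of more downstream RefSeq starts of Cldn7, Ocln and Tjp3 held it as well. The GC box was in 5 of the 7 windows, those of Epcam, Cldn1, Cldn3, Cldn4 and Ocln, and in 32.7% of all windows. The string AACCNGGTT, searched as a grainyhead motif, was in none of the 7 windows and in 0.24% of all windows. It requires a base at N, so sites without this spacer were not searched, and the presence of grainyhead sites was not decided. None of the 7 windows held the AP-2 motif GCCNNNGGC, found in 13.7% of all windows, or the TATA box TATAAA, found in 12.4%. The window of the more downstream RefSeq start of Ocln held 1 AP-2 motif.

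To compare the level of the junction genes between tumor and normal mammary tissue, the Normal and Tumor libraries were tested with limma. The FPKM of 8 of the 9 genes, all but Cldn8, were higher in Tumor with an adjusted p under 0.05, and none was lower. In the same test 28.8% of the 13031 genes tested were higher in Tumor and 31.7% were lower. The 9 genes and the lists below were chosen with earlier results of these data known, so these shares serve as description only. All 9 genes passed the filter on low values, and the median log2 difference of the 9 was 2.75 against -0.02 for all genes tested. In the same 8 genes every Tumor library was above every Normal library, which was the case for 33.1% of all genes tested.

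Epcam was the most abundant of the 9 genes, with 147.1, 68.2 and 98.7 FPKM in the 3 Normal libraries and 994.99, 645.98 and 752.4 in the 3 Tumor libraries. Every Tumor library was far above the highest Normal library, and the mean was 7.62-fold higher. The log2 difference of Epcam was 2.98 ± 0.302 (SE, n = 3), with a limma adjusted p of 0.000188. For Cdh1, E-cadherin, the FPKM were 37.7, 25.6 and 28.1 in Normal and 267.2, 171 and 181.3 in Tumor. These groups did not overlap, and the log2 difference was 2.75 ± 0.225 (SE, n = 3), with a limma adjusted p of 7.99e-05.

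Among the 5 claudins of the set the largest log2 difference was that of Cldn3, a claudin with a barrier function, with 85.8, 39.2 and 51.1 FPKM in Normal and 781.1, 555.6 and 622.7 in Tumor. The mean rose 11.1-fold, and the log2 difference was 3.54 ± 0.295 (SE, n = 3, limma adjusted p = 8.65e-05). Cldn7, the claudin known to bind Epcam, was at 38, 21.2 and 20.7 FPKM in Normal and 315.6, 270.4 and 256.6 in Tumor. It rose 10.6-fold in the mean, with a log2 difference of 3.45 ± 0.249 (SE, n = 3, limma adjusted p = 5.08e-05), the smallest adjusted p of the 9 genes. Cldn1, whose loss in mice opens the water barrier of the skin, was much less abundant, with 3.57, 2.19 and 4.25 FPKM in Normal and 24.4, 33.8 and 36.5 in Tumor. Its mean was 9.46-fold higher in Tumor, a log2 difference of 3.26 ± 0.278 (SE, n = 3, limma adjusted p = 9.31e-05).

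The remaining claudins of the set had smaller differences. Cldn4 was at 39.9, 17.7 and 24.7 FPKM in Normal and 77, 155 and 112.8 in Tumor, so that the groups did not overlap but the Tumor libraries differed about as much among themselves as the Normal libraries did. Its log2 difference was 2.09 ± 0.35 (SE, n = 3, limma adjusted p = 0.00176). Cldn8, which acts together with claudin-4 in the kidney collecting duct, was at 4.57, 2.15 and 5.41 FPKM in Normal and 4.48, 9.41 and 7.95 in Tumor. The lowest Tumor library was below 2 of the 3 Normal libraries. The log2 difference was 0.88 (95% confidence interval -0.09 to 1.85) with a limma adjusted p of 0.102, and it passed with an adjusted p of 0.0362 without Tumor replicate 1 and 0.0331 after quantile normalization. Without Normal replicate 2 the log2 difference was 0.48 with a limma adjusted p of 0.28.

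Of the other tight junction members, Ocln, occludin, was the lowest in normal tissue, with 2.88, 0.639 and 1.87 FPKM in Normal and 7.47, 10.6 and 9.55 in Tumor. The groups were apart and the log2 difference was 2.56 ± 0.506 (SE, n = 3, limma adjusted p = 0.00371). Tjp3, the scaffold ZO-3, was at 14.6, 6.61 and 9.12 FPKM in Normal and 27.4, 30.9 and 21.8 in Tumor. It had the smallest difference of the 8 genes that rose, with a mean 2.64-fold higher and a log2 difference of 1.46 ± 0.294 (SE, n = 3, limma adjusted p = 0.00402).

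**Figure D1:**
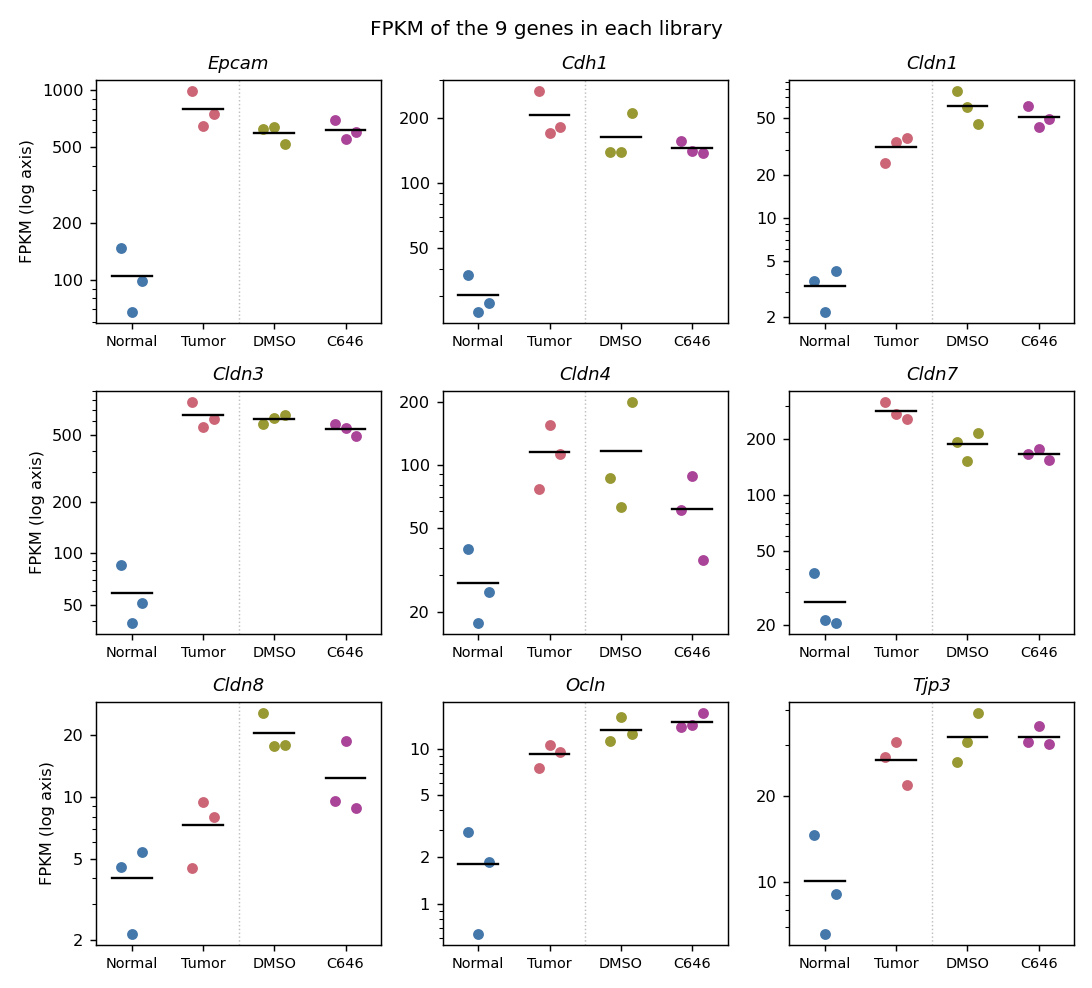
FPKM of the 9 genes (vertical axis, logarithmic and different for each panel) in the 3 libraries of each group (points) with the group mean (bar); the dotted line parts the tables that were made separately. Normal is the lowest group for every gene, the 3 Tumor points lie above the 3 Normal points for 8 genes, and the Cldn8 points of Normal and Tumor overlap.

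In the Normal libraries the genes varied together. Of the 9 genes, 8 were lowest in Normal replicate 2 and 7 were highest in Normal replicate 1. The luminal markers followed the same order, with summed FPKM of 781.2, 376.5 and 463.8 in the 3 Normal libraries, and the adipocyte markers had the opposite order, with 25592.7, 32264.4 and 28702.8. In the Tumor libraries no single order held. Epcam, Cdh1, Cldn3 and Cldn7 were highest in Tumor replicate 1. The luminal marker sum was also highest there, with 2516 FPKM against 1939 and 1955 in Tumor replicates 2 and 3. Every other marker list but the basal and myoepithelial one had its highest Tumor sum there too, among them adipocytes with 2436 and skeletal muscle with 4567 FPKM. Cldn4, Cldn8, Ocln and Tjp3 were highest in Tumor replicate 2, and Cldn1 in Tumor replicate 3.

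Cdh1 and Cldn4 each had 2 rows in the Normal and Tumor tables and 1 row in the DMSO and C646 tables. The values above are sums of both rows, which may put these genes too high relative to genes with 1 row. The first Cdh1 row, whose 34 neighbors of known strand were all on the forward strand like Cdh1, had 27.9, 8.56 and 15.4 FPKM in Normal and 84.9, 97.1 and 84.4 in Tumor. The second row had 35 neighbors that were all on the reverse strand, with 9.87, 17 and 12.6 FPKM in Normal and 182.3, 73.8 and 97 in Tumor. The libraries did not mark the strand. For Cldn4 the row among reverse-strand genes, the strand of Cldn4, had 31.9, 14.5 and 17.4 FPKM in Normal and 61.6, 114.1 and 97.6 in Tumor, and the row among forward-strand genes had 7.98, 3.18 and 7.28 in Normal and 15.4, 40.9 and 15.2 in Tumor. Each of these 4 rows was higher in every Tumor library than in any Normal library. With only the highest row of each repeated name, and with only the lowest, an alternative chosen after seeing the data, 8 of the 9 genes were higher in Tumor.

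Krt8 and Krt18, the paired keratins of the luminal epithelium, rose in the same comparison, from 161.1, 70 and 88 to 677.8, 501.6 and 605.3 FPKM for Krt8 and from 227, 119.1 and 134.5 to 1044, 708 and 768.3 for Krt18. The mean of their log2 values was 2.5 higher in Tumor than in Normal. Not all luminal markers rose. Krt19, with a log2 difference of 0.30, and Prlr, with -0.57, were not called, and the other 6 were called higher. To see how far the junction genes moved beyond these epithelial markers, each gene was expressed as its log2 value minus the mean log2 of Krt8 and Krt18 in the same library. On this scale Epcam, Cldn3 and Cldn7 were higher in all 3 Tumor libraries than in all 3 Normal libraries, 3 of the 9 genes against 2.19% of all genes tested. Cldn8 and Tjp3 were lower in all 3 Tumor libraries, 2 of the 9 against 89.8% of all genes tested, since most genes rose less than the keratins or fell. A rise above the 2.5 of the keratins was not particular to Epcam, Cldn3 and Cldn7. In the lists below, Igsf5 had a log2 difference of 4.61, Crb3 3.30 and Esrp1 3.03. The median of the epithelial regulators and partners was 2.49, close to that of the keratins.

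Cldn3 was at -1.16, -1.22 and -1.09 in Normal and -0.11, -0.10 and -0.13 in Tumor, a difference of 1.04 with a spread within the groups of 0.0653 and 0.0159 (SD, n = 3). Thus Cldn3 was less than the keratin mean in the Normal libraries and close to it in the 3 Tumor libraries. Cldn7 was at -2.33, -2.10 and -2.40 in Normal and -1.41, -1.14 and -1.41 in Tumor, a difference of 0.96. Epcam was at -0.38, -0.42 and -0.14 in Normal and 0.24, 0.12 and 0.14 in Tumor, a difference of 0.48. In the opposite direction, Tjp3 was at -3.71, -3.78 and -3.57 in Normal and -4.94, -4.27 and -4.97 in Tumor, a difference of -1.04, and Cldn8 was at -5.38, -5.39 and -4.32 in Normal and -7.54, -5.98 and -6.42 in Tumor, a difference of -1.62. For each of these 5 genes the exact two-sided permutation p was 0.1, the smallest that 3 against 3 libraries can give, and 0.18 after adjustment over the 9 genes, so none passed. The groups overlapped for Cdh1, with a difference of 0.25, for Cldn1, with 0.76, for Cldn4, with -0.41, and for Ocln, with 0.07. With all 8 luminal markers as the reference the median difference of the 9 genes was 1.05 in place of 0.25, and that of Cldn4 turned to 0.39. With that reference the exact permutation p was 0.1 for Epcam (1.27), Cdh1 (1.05), Cldn1 (1.56), Cldn3 (1.84) and Cldn7 (1.75), and it was 0.3 for Tjp3, at -0.24, and 0.2 for Cldn8, at -0.82. The injected tumors are set beside these values without a test. Relative to Krt8 and Krt18, Cldn3 had a mean of -0.42 in DMSO and -0.41 in C646. The DMSO values of Epcam, -0.40, -0.35 and -0.71, overlapped its Normal values. Those of Cldn7, -2.10, -2.42 and -1.99, overlapped its Normal values as well.

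**Figure D2:**
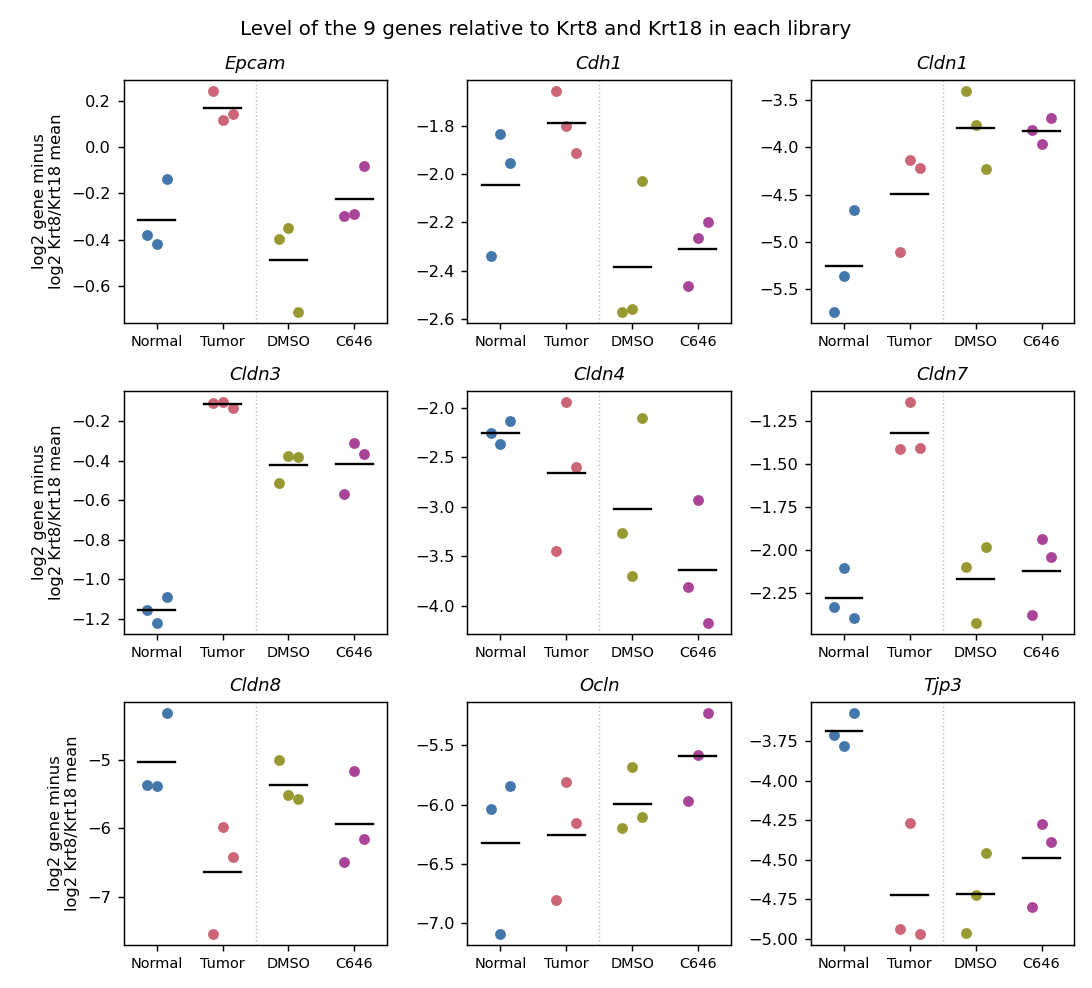
Log2 FPKM of each gene minus the mean log2 FPKM of Krt8 and Krt18 in the same library (vertical axis, different for each panel), with 3 points for each group and their mean as a bar. The Tumor points of Epcam, Cldn3 and Cldn7 lie above the Normal points, and those of Cldn8 and Tjp3 lie below them.

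The make-up of the claudins was compared as the share of each in their summed FPKM, and no share passed its test after adjustment. The summed FPKM of Cldn1, Cldn3, Cldn4, Cldn7 and Cldn8 was 171.8, 82.4 and 106.1 in Normal and 1203, 1024 and 1037 in Tumor. Cldn3 held 48.5% ± 1.27 (SD, n = 3) of this sum in Normal and 59.8% ± 5.36 in Tumor. The share of Cldn4 was 22.7% (between 21.5% and 23.3%) in Normal and 10.8% ± 4.37 in Tumor, with 15.1% as the highest Tumor value. The share of Cldn8 was 3.46% ± 1.43 in Normal and 0.686% ± 0.282 in Tumor. These 3 shares each had an exact permutation p of 0.1, the smallest the design can give, and an adjusted value of 0.167. Cldn7, with 22.4% and 25.8%, and Cldn1, with 2.91% and 2.95%, overlapped between the groups. Counted over all 29 claudin names in the files, these 5 claudins made up between 56.2% and 71.1% of the claudin FPKM in Normal and between 94.2% and 97.1% in Tumor. When every claudin was counted in the sum, the difference in the share of Cldn4 was -3.86 percentage points in place of -11.9, and the exact permutation p was 0.3. In that sum the difference of Cldn3 was 26.5 percentage points in place of 11.2 and that of Cldn8 was -1.49 in place of -2.77, both with an exact permutation p of 0.1. The difference of Cldn7 was 10.7 percentage points in place of 3.37, also with an exact permutation p of 0.1.

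**Figure D3:**
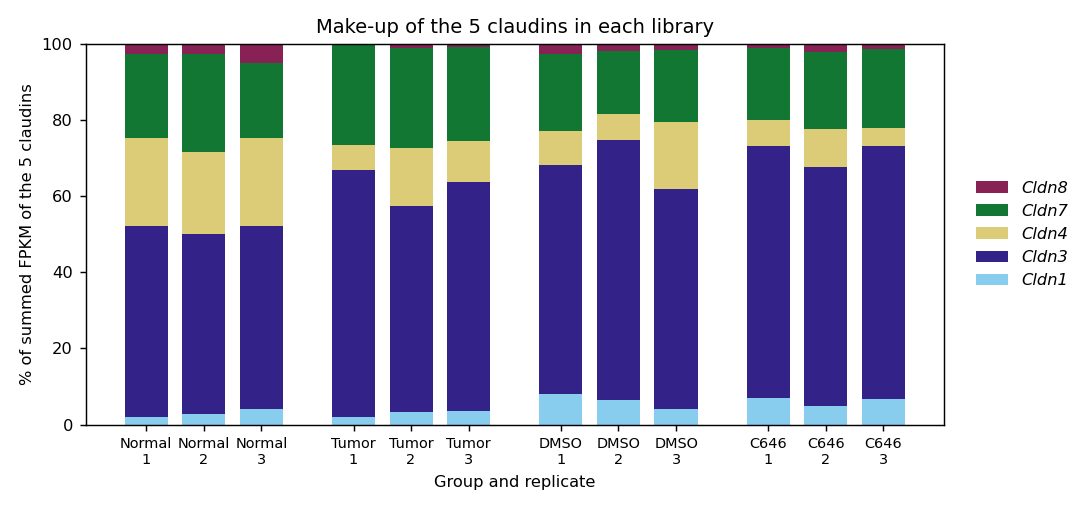
Share of each of the 5 claudins in their summed FPKM (vertical axis, percent from 0 to 100) in each of the 12 libraries (bars). Cldn4 holds between 21.5% and 23.3% in the 3 Normal libraries and between 6.41% and 15.1% in the 3 Tumor libraries, and Cldn3 is the largest part in every library.

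The other claudins did not move as a block. Of 18 found in the files, 8 passed the filter on low values, 2 of which were higher and 4 lower in Tumor, with a median log2 difference of -1.12 against -0.02 for all genes. Beside the counts of this list and the lists that follow, 28.8% of all genes tested were higher in Tumor and 31.7% were lower. Cldn2, a claudin that forms channels for cations, was at 0.16, 0.251 and 0.271 FPKM in Normal and 26.4, 8.5 and 22 in Tumor, a log2 difference of 6.07 ± 0.451 (SE, limma adjusted p = 5.56e-05). It was near 0 in every Normal library and above 8 in every Tumor library. Cldn23 rose from between 0.416 and 0.956 FPKM to between 2.54 and 4.99. Cldn11, the claudin of myelin and Sertoli cells, was at 2.06, 2.36 and 2.11 FPKM in Normal and listed at 0 in all 3 Tumor libraries, and Cldn15 fell from between 6.35 and 8.95 FPKM to between 0.399 and 1.75. The other two that fell, named to complete the count, were Cldn5, the claudin of endothelium, and Cldn6.

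Of 20 other tight junction genes, 12 were higher and 4 lower in Tumor, with a median log2 difference of 0.90. Igsf5, a junctional adhesion molecule, rose most, from 1.05, 0.281 and 0.987 FPKM to 15, 18.3 and 18.1 (log2 difference 4.61 ± 0.469, SE, limma adjusted p = 0.00019). Crb3, an apical polarity protein, rose from between 4.13 and 9.81 FPKM to between 54.6 and 80.5. Jam3, an adhesion molecule that endothelium also carries, fell from between 11.8 and 13.6 FPKM to between 0.265 and 1.8, and Ildr2 fell from between 1 and 1.21 to between 0.0611 and 0.223. The other two that fell were Jam2 and Mpdz. The summed endothelial markers were lower too, from between 122.3 and 152.2 to between 17.6 and 26.7 FPKM.

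Of 15 adherens junction genes, 10 were higher and 1 was lower in Tumor, with a median log2 difference of 0.67, below the 2.75 of Cdh1. Pvrl4 (nectin-4) rose from between 4.16 and 8.75 FPKM to between 15.8 and 24.6, and Jup (plakoglobin), shared with desmosomes, from between 26.1 and 32.4 to between 69.7 and 99.6. The gene that fell was Cdh2, N-cadherin, at 1.07, 1.45 and 1.68 FPKM in Normal and 0.171, 0.0851 and 0.403 in Tumor (log2 difference -2.70 ± 0.559, SE, limma adjusted p = 0.00463). Of the 11 desmosome genes tested, 7 were higher and 1 was lower. Perp rose from between 9.21 and 15.2 FPKM to between 80 and 108.8, and the plakophilin Pkp3 from between 9.04 and 13.5 to between 53.7 and 62.7. Dsc3, a desmocollin of basal and stratified epithelium, fell from 2.07, 2.67 and 2.31 FPKM to 0.117, 0.123 and 0.0573.

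All 15 epithelial regulators and partners of the junction genes, among them the transcription factors Grhl2, Ovol1, Elf3 and Klf5 and the surface proteases and inhibitors St14, Spint1 and Spint2, were higher in Tumor, with a median log2 difference of 2.49. The splicing factor Esrp2 rose from 3.66, 1.63 and 2.26 FPKM to 19, 21.6 and 19.9, and its paralog Esrp1 from between 8.28 and 15.5 to between 80.7 and 105.7. Of the 5 repressors of epithelial junction genes that were found, 4 were lower and none was higher. Zeb1, which represses Cdh1, was at 10.8, 10.2 and 10.6 FPKM in Normal and 0.616, 0.881 and 0.56 in Tumor, with little spread in either group (log2 difference -3.91 ± 0.227, SE, limma adjusted p = 2.64e-05). Twist2 fell from between 10.3 and 13.8 FPKM to between 0.519 and 1.81, and Snai2 and Twist1 complete the count. Snai1 was not called, with a log2 difference of 0.06. The summed fibroblast markers were between 1576 and 1676 FPKM in Normal and between 190.1 and 458.8 in Tumor, and their part in the fall of the repressors was not tested.

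To ask whether the p300 inhibitor changed the junction genes in tumors, the C646 libraries were compared with the DMSO libraries. None of the 9 genes passed the limma test, and 0% of the 12083 genes tested did so (0 genes, smallest adjusted p 0.99). At an unadjusted limma p under 0.05, 169 genes were higher and 215 lower in C646, and without DMSO replicate 2 the adjusted test called 12 genes lower, with none of the 9 among them. The median log2 difference of the 9 genes was -0.16 against -0.01 for all genes tested, with 3 genes above 0 and 6 below. No gene of the 9 had groups that did not overlap, while 4.52% of all genes tested were lower and 4.04% higher in every C646 library than in any DMSO library.

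The 4 most abundant genes had intervals that reached to both sides of 0. Epcam was at 627.2, 641.9 and 523.8 FPKM in DMSO and 701, 554.5 and 599.6 in C646, with a log2 difference of 0.05 (95% confidence interval -0.34 to 0.44). Cldn3 was at 578.8, 631.6 and 657.8 in DMSO and 581.4, 547.5 and 492.7 in C646, with a log2 difference of -0.21 (-0.55 to 0.13). For Cldn7 the values were 192.7, 152.5 and 216.2 in DMSO and 165.9, 176.9 and 154 in C646, with a log2 difference of -0.16 (-0.54 to 0.22). Cdh1 was at 139.1, 139 and 210 in DMSO and 156.5, 140.9 and 138.2 in C646, a log2 difference of -0.14 (-0.58 to 0.31). The groups of these 4 genes overlapped, and the lowest bound among them was that of Cdh1. Cldn1 at -0.24 (-0.77 to 0.29), Ocln at 0.19 (-0.23 to 0.60) and Tjp3 at 0.02 (-0.38 to 0.41) had overlapping groups too.

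Cldn4 and Cldn8 had the largest differences. Cldn4 was at 86.1, 63 and 199.2 FPKM in DMSO and 61.2, 88.6 and 35.2 in C646, with a log2 difference of -0.83 and a wide interval from -1.99 to 0.32. The DMSO mean rested on DMSO replicate 3, and without that library the difference was -0.35. Cldn8 was at 25.7, 17.8 and 18 FPKM in DMSO and 9.56, 18.8 and 8.83 in C646. Of the C646 libraries 2 were below every DMSO library and C646 replicate 2 lay between the DMSO values. Its log2 difference was -0.79 (-1.53 to -0.05), with an unadjusted limma p of 0.04 and an adjusted p of 0.99, and it was the only gene of the 9 with an unadjusted p under 0.05.

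DMSO replicate 3 stood apart in some but not all keratin genes. Krt5, a keratin of basal cells, was at 8.01, 25.6 and 229 FPKM in DMSO and between 26.4 and 35.2 in C646. Krt7, Krt17 and Krt19 were also well above the other DMSO libraries in it. Krt8 lay between 848.8 and 874.2 and Krt18 between 772.4 and 839.5 FPKM in DMSO. The summed basal and myoepithelial markers were 71, 58.7 and 365.9 in DMSO and between 75.6 and 75.9 in C646. These sums leave out Krt14, which had no row of its own here. The same library was the highest of the 3 DMSO libraries for 5 of the 9 genes, Cdh1, Cldn3, Cldn4, Cldn7 and Tjp3. Skeletal muscle markers were at 365.5 in it, and at 0.952 and 2.15 in the other DMSO libraries, and were at 378.4, 2.35 and 346.1 in C646. Adipocyte markers were the only list whose sums did not overlap between the groups, with 17.8, 77 and 62.7 FPKM in DMSO and 102.3, 377 and 603.9 in C646. The part of these markers in the differences of Cldn4 and Cldn8 was not tested, beside the value of Cldn4 without DMSO replicate 3.

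**Figure D4:**
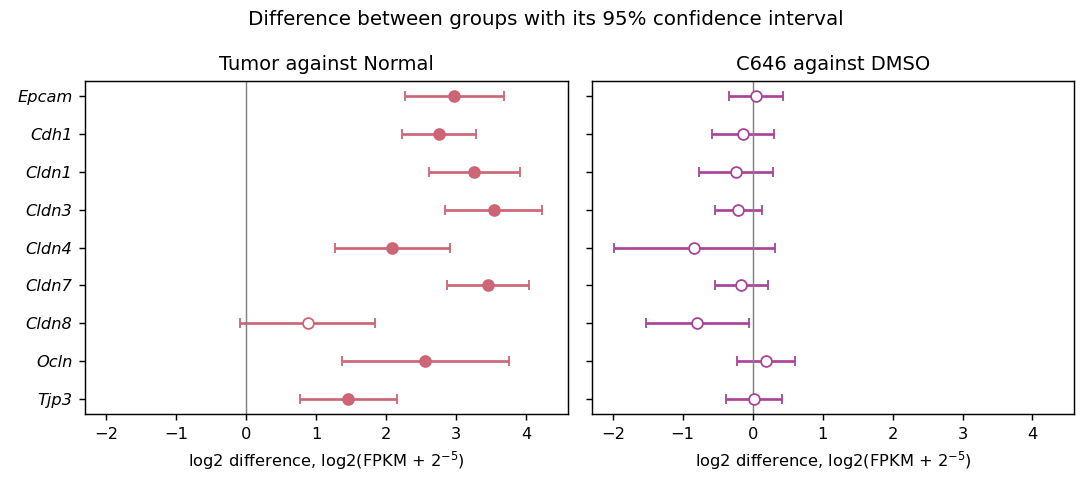
Log2 difference of the 9 genes in Tumor against Normal (left) and C646 against DMSO (right) on the log2(FPKM + 2 to the power -5) scale, with 95% confidence intervals as bars; filled points had an adjusted p under 0.05. On the left 8 points are filled and only the interval of Cldn8 reaches 0, and on the right no point is filled, with the widest interval for Cldn4.

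Relative to Krt8 and Krt18 the C646 and DMSO libraries overlapped for 8 of the 9 genes. Epcam was at -0.40, -0.35 and -0.71 in DMSO and -0.30, -0.29 and -0.08 in C646, a difference of 0.26 with no overlap, which 9.25% of all genes tested also showed. The opposite pattern, all C646 libraries lower than all DMSO libraries, was found in 0.414% of all genes and in none of the 9. The exact permutation p of Epcam was 0.1 and 0.72 after adjustment, and its difference was -0.04 with all 8 luminal markers as the reference. The claudin shares overlapped between DMSO and C646 for all 5 claudins, and Cldn3 held 62.1% ± 5.47 (SD, n = 3) of their sum in DMSO and 65.1% ± 2.21 in C646.

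No gene of the 6 junction lists was called between C646 and DMSO, and the medians of the lists were between -0.35 for the desmosome genes and 0.10 for the repressors. Of the 10 desmosome genes tested, 2, Dsp and Perp, had an unadjusted limma p under 0.05. Of all 12083 genes tested, 169 higher and 215 lower genes had such a p. Dsp and Dsc2 were lower in every C646 library than in any DMSO library, as were 4.52% of all genes tested. In the other lists Cxadr and Pvrl3 were lower without overlap, and Esrp2 was higher. Dsp, desmoplakin, which links desmosomes to keratin filaments, is named here after its values were seen. It was at 44.1, 27.2 and 49 FPKM in DMSO and 22.6, 17.5 and 14.8 in C646, a log2 difference of -1.11 with an unadjusted limma p of 0.00393 and an adjusted p of 0.99.

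**Figure D5:**
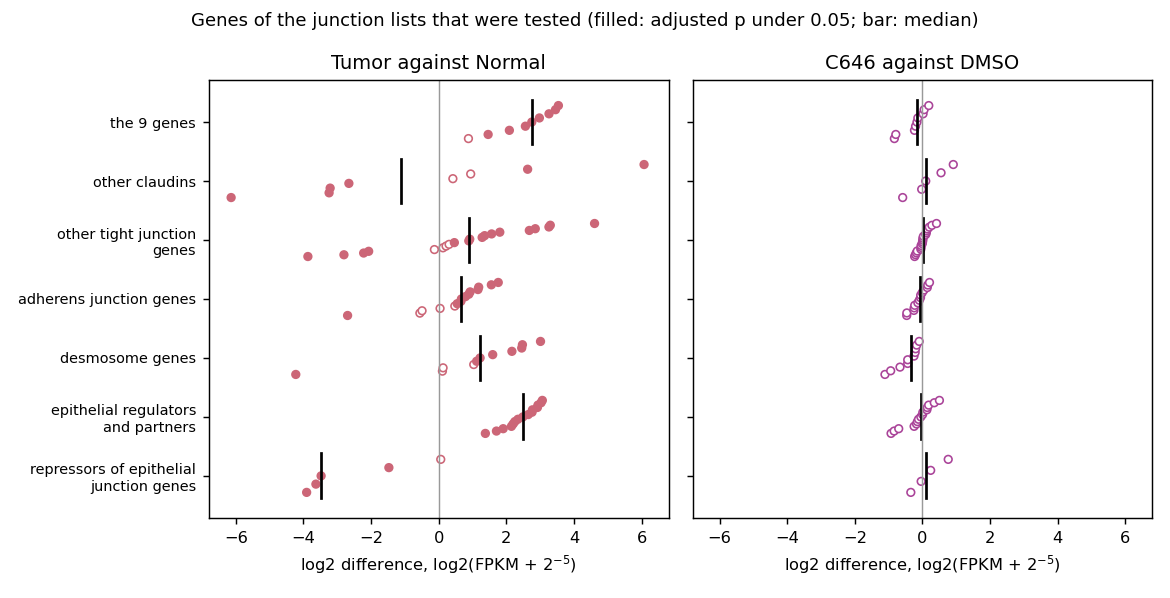
Log2 difference of every tested gene (points) in the 9 junction genes and the 6 lists of related genes, for Tumor against Normal (left) and C646 against DMSO (right), with the median of each list as a bar; filled points had an adjusted p under 0.05. On the left the 15 epithelial regulators and partners lie above 0 and 4 of the 5 repressors below it, and on the right no point is filled.

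Over the 4 groups, Normal had the lowest mean for all 9 genes. The order of the tumor groups differed between genes, and since the tables were made separately these levels are given side by side without a test. Epcam, Cldn3 and Cldn7 had their highest mean in Tumor, while Cldn1 and Cldn8 had it in DMSO and Ocln and Tjp3 in C646. The Normal and Tumor levels of Cdh1 and Cldn4 are sums of 2 rows, against 1 row in DMSO and C646, so their order depended on this choice. The summed mean of Cdh1 in Tumor was 206.5 FPKM and its single rows had means of 88.8 and 117.7, against 162.7 in DMSO and 145.2 in C646. Cldn1 was between 24.4 and 36.5 FPKM in Tumor, between 45.8 and 78 in DMSO and between 43.4 and 61.3 in C646, so that both injected groups were above Tumor. Cldn8 had group means of 4.05 in Normal, 7.28 in Tumor, 12.4 in C646 and 20.5 in DMSO, and each neighbor in this order overlapped the next. Ocln was between 7.47 and 10.6 FPKM in Tumor and between 11.3 and 15.9 in DMSO, without overlap, whereas DMSO and C646 overlapped. Cldn7 went the other way, with 256.6 to 315.6 FPKM in Tumor and 152.5 to 216.2 in DMSO. For Epcam, Cldn3 and Tjp3 each tumor group overlapped its neighbors in the order, and the lowest C646 library of Cldn4 also lay within the Normal range.

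In each group Epcam and Cldn3 were the highest of the 9 genes per length, and in the tumor groups most gene names were below them, with 99.5% below Epcam and 99.4% below Cldn3 in Tumor. Ocln was the lowest in Normal, where 50.2% of names were below it, and 71.3% were below it in Tumor. The genes other than the 9 whose profile over the 12 libraries was closest to the mean profile of the 9, by the root mean square difference of centered log2 values, were Mpzl1 with 0.163, Ptk7 with 0.163, Usp43 with 0.192, Macc1 with 0.194 and 2310030G06Rik with 0.198, out of 13223 genes with a median of 1.18. These profiles span tables that were made separately. Mpzl1 was between 9.88 and 17.6 FPKM in Normal and between 80.5 and 114.4 in the 9 tumor libraries. Among the 9 genes, which make up that mean, Epcam was nearest to the mean profile, at 0.307, and Cldn8 was farthest, at 0.727.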

How the data were processed

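The deposited FPKM values were made by the authors with the tools named here, per the labels and the methods. Reads of poly-A selected, non-directional libraries were trimmed by cutadapt, TopHat2 2.1.1 aligned them to mm10, and Cufflinks 2.2.1 gave the FPKM of each gene. The annotation was not given in the sources used here. Rows of the same name were summed, and 1837 rows without a name in the Normal and Tumor tables were left out. Genes with at least 1 FPKM in 3 of the 6 libraries of a comparison were tested on log2(FPKM + 2 to the power -5) with limma 3.58.1 (trended empirical Bayes, R 4.3.3, Benjamini-Hochberg adjusted p under 0.05). Ratios to keratins and claudin shares were tested with exact two-sided permutation tests. The test was tried on simulated data first. The 9 genes, the lists and the rule for named genes (all 9, the 2 highest and 2 lowest called genes of each list, marker genes and the 5 nearest profiles) were chosen with earlier results of these data known. Fold changes on this scale understate the change of low genes. Replicates were separate mice or pools, so p-values measure the spread between 3 libraries. FPKM gave no depth, so no counting interval was computed. Neighboring rows were assigned a strand with GENCODE vM21, and RefSeq promoter windows were matched by symbol for 7 of the 9 genes. Alternatives covered the pseudocount, the filter, 2 scalings, repeated rows, the reference, a replicate block and each left-out library. Results for 1 gene of the lists are not reported here.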

Additional observations from a re-analysis of the deposited data

How the results depend on the processing

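The 8 genes higher in Tumor passed the test under all 14 alternatives, and Cldn8 passed under 2 of them, with log2 differences of 1.25 after quantile normalization and 1.19 without Tumor replicate 1. No gene of the 9 was called between C646 and DMSO under any alternative. Quantile normalization moved the median log2 difference of all genes in Tumor against Normal from -0.02 to 0.12. Genes lower in Tumor numbered 2570 to 4172 over the left-out libraries, against 4128 with all libraries, with 2570 without Normal replicate 3 and 2686 without Normal replicate 2. The filter still asked for at least 1 FPKM in 3 libraries, so a gene present only in Normal could not enter these 2 fits. Genes tested numbered 12077 in both, 12650 without Tumor replicate 1 and 13031 with all libraries. The part of the filter in the lower counts was not tested. Genes lower in C646 numbered 0 to 12. Same-numbered Normal and Tumor libraries did not deviate together, with correlations between -0.10 and 0.01, against -0.06 to 0.09 for libraries of different numbers. Same-numbered DMSO and C646 libraries had correlations between 0.07 and 0.17, all above 0, against -0.23 to 0.14 for different numbers. Whether the numbers pair the DMSO and C646 samples was not settled by these values, and the main test used no pairing. A fit with a replicate block called 3439 genes higher and 3827 lower in Tumor, against 3758 and 4128 without it, and 0 in C646. The block changed no call among the 9 genes, with 8 of the 9 higher in Tumor.

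Some directions that no test had called turned. With all 8 luminal markers as the reference in place of Krt8 and Krt18, the median of the 9 genes in Tumor against Normal was 1.05 and Cldn4 was at 0.39, and in C646 against DMSO Epcam was at -0.0429, Cdh1 at -0.23, Cldn3 at -0.30, Cldn7 at -0.25 and Tjp3 at -0.0743. With a pseudocount of 1, Ocln in Tumor against Normal, relative to the keratins, was at -0.54, and with quantile normalization Cdh1 in C646 against DMSO was at 0.0226. Over the left-out libraries, Ocln relative to the keratins ran from -0.32 to 0.34 in Tumor against Normal, and the difference in the share of Cldn1 from -0.38 to 0.58 percentage points. In C646 against DMSO the log2 difference ran from -0.0458 to 0.12 for Epcam, from -0.24 to 0.0603 for Cdh1 and from -0.12 to 0.17 for Tjp3. Relative to the keratins it ran from -0.0167 to 0.25 for Cdh1, from -0.24 to 0.17 for Cldn1, from -0.0453 to 0.085 for Cldn3 and from -0.0772 to 0.18 for Cldn7, and the difference in the share of Cldn1 ran from -1.11 to 0.93 percentage points. The cause of these turns was not tested. With 3 libraries a group, an exact test cannot go below 0.1, and FPKM without read counts gave no counting error.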

Other observations

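Junction genes outside the 9 that differed widely among tumors of the same group are named here after their values were seen. Cldn10 was at 22.1, 1.82 and 14.3 FPKM in Tumor, at 67.2, 10.2 and 2.49 in DMSO and at 96.4, 7.31 and 16.2 in C646, against 6.34, 2.44 and 5.18 in Normal.

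DMSO replicate 3 also held the highest DMSO values of 2 desmosome genes named after their values were seen. The desmosomal plaque gene Pkp1 was at 5.24, 6.03 and 21.8 FPKM in DMSO and between 2.4 and 8.11 in C646, and Dsc1 was at 6.34 FPKM in that library and listed at 0 in DMSO replicates 1 and 2. The same library held the highest DMSO values of Krt5 and Cldn4 given above. Marveld2 (tricellulin), a gene of tricellular contacts, was between 18.5 and 21.4 FPKM in DMSO and between 19.5 and 25 in C646, with a log2 difference of 0.20.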
